A study of Drosophila melanogaster with 12 samples.

Results

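The genes described here are those whose response to PIG-A knockdown differed between the neuron driver and the glia driver. PIG-A encodes the catalytic subunit of the enzyme that starts the synthesis of the GPI anchor, a glycolipid that holds many proteins on the cell surface. RNA of whole heads was sequenced in 12 libraries, 3 in each of 4 groups. In PIGA KD_Neuron, ELAV-GAL4 drove a PIG-A RNAi line (BDSC 62696) in neurons. In Attp_Neuron, ELAV-GAL4 was crossed to the AttP line (BDSC 36304), which has no RNAi transgene. In PIGA KD_Glia and Attp_Glia, REPO-GAL4, a driver for glia, was crossed to the same RNAi and AttP lines. The labels give flies of 3 to 5 days and 5 to 10 flies per library, without any further treatment, and knockdown was limited to 1 cell class while the RNA came from all cells of the head. For each gene the neuron response is log2(PIGA KD_Neuron / Attp_Neuron), the glia response is log2(PIGA KD_Glia / Attp_Glia), and the difference is the neuron response minus the glia response. All 12 libraries entered one edgeR quasi-likelihood fit, and a gene was called when the Benjamini-Hochberg adjusted p of the difference was at most 0.05 and the difference was at least 1.5-fold. Of 10257 genes tested, 309 were called (3.01%), of which 64 (0.624%) had a higher and 245 (2.39%) a lower response under the neuron driver, so that 20.7% of the calls were higher. DESeq2 called 263 higher and 417 lower genes, 38.7% of them higher. An unadjusted p under 0.05 was reached by 1111 genes above and 1058 genes below 0.

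Libraries held 20694850 to 31893782 counts. In whole heads, fewer cells of a type and less RNA per cell cannot be told apart. Markers of neurons (elav, nSyb and others) summed to 2873 to 4561 CPM (counts scaled to library size) and markers of photoreceptors to 29488 to 46434 CPM over all libraries, while markers of the accessory gland and midgut were at or near 0. The methods name male flies, but the yolk protein genes Yp1, Yp2 and Yp3 of the female fat body summed to 40906 to 186680 CPM and the male RNAs roX1 and roX2 to 1.55 to 7.54 CPM in the 12 libraries. A pair of libraries stood apart. The flight muscle markers summed to 8383 CPM in PIGA KD_Neuron replicate 3 and 8939 CPM in Attp_Glia replicate 3, against 1756 to 2859 CPM in the other 10. PIGA KD_Neuron and Attp_Glia both enter the difference with a positive sign, so results without both libraries are given as well. With both left out, 42 of the 64 higher genes and 184 of the 245 lower genes were still called, and none of the 309 changed sign. The sign is no separate check, because the genes were chosen for a large difference in libraries that this fit shares.

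PIG-A itself (FBgn0034270, chr2R:17737622-17739685, dm6) had 2.99, 2.54 and 3.06 CPM in PIGA KD_Neuron, against 3.75, 5.19 and 3.62 CPM in Attp_Neuron. It had 3.99, 4.88 and 5.28 CPM in PIGA KD_Glia, against 4.81, 4.86 and 4.84 CPM in Attp_Glia. The neuron groups did not overlap and the glia groups did. Neither response passed the test (neuron response −0.55, adjusted p = 0.227; glia response −0.04, adjusted p = 0.911), and the difference of −0.51 (SE 0.24) had an adjusted p of 0.255. mthl8, a member of the methuselah-like receptor family, had 0 counts in all 6 knockdown libraries and 4.44 to 7.83 CPM in the 6 control libraries. It was at least 59.0-fold lower in PIGA KD_Neuron and at least 40.6-fold lower in PIGA KD_Glia, taking 3 counts per library as the floor, and gave no measurable difference between the drivers.

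The called genes were carried mainly by the glia response. In the same fit 30 genes (0.292%) were called for the neuron response, 15 in each direction, and 538 (5.25%) for the glia response, 387 up and 151 down. The neuron count was larger with DESeq2 and without both libraries high in muscle transcripts, as given further on. The sorting by called response that follows holds for this fit only. Of the 245 lower genes, 191 were called for the glia response and not for the neuron response, 4 for the neuron response and not for the glia response, 1 for both and 49 for neither. Of the 64 higher genes these counts were 31, 2, 0 and 31. The median lower gene had a neuron response of −0.37 and a glia response of 0.84, and the median higher gene a neuron response of 0.32 and a glia response of −0.65, where the medians over all genes tested were 0.00 and −0.02. The responses had opposite signs in 229 of the 245 lower and 58 of the 64 higher genes, against 54.3% of all genes tested. A gene chosen for a large difference tends to have responses of opposite sign, so these counts describe the choice. The 18 genes that were called in the same direction under both drivers included 0 called for the difference, where 3.01% of all genes tested were called. So few genes would hold few or no calls at that share. They were also chosen for like responses, so the 0 is a description. The plot of the neuron against the glia response shows the lower genes gathered above the diagonal, mostly left of 0, and the higher genes below it.

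**Figure D1:**
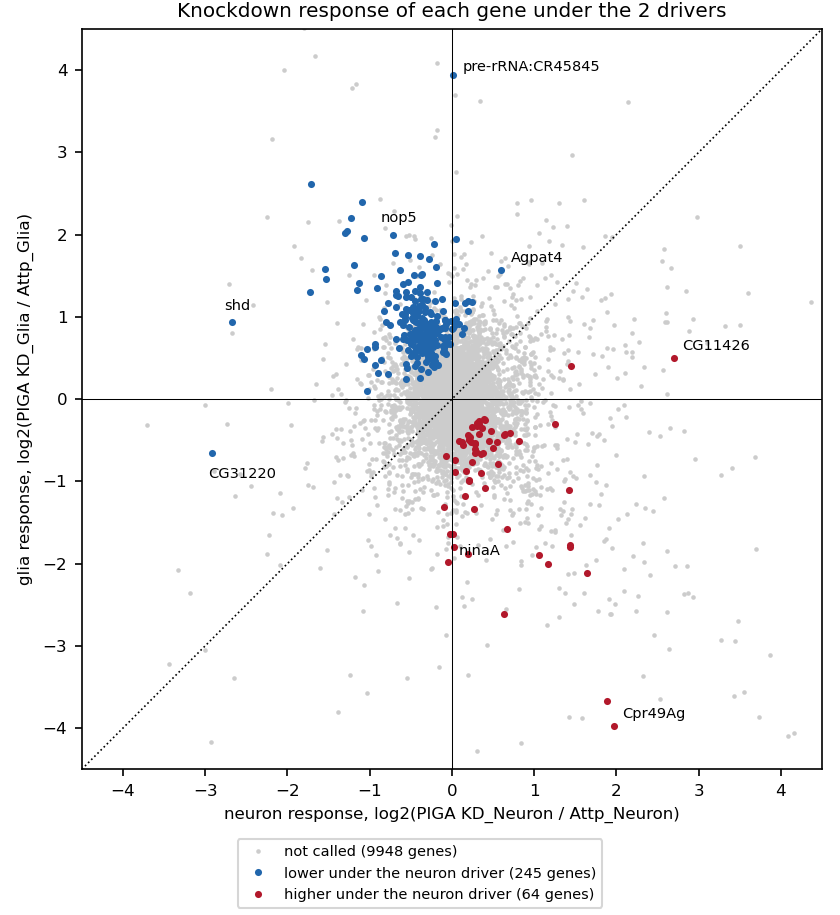
Each point is a gene, with its neuron response (x axis, log2) against its glia response (y axis, log2), coloured by the call for the difference; the dotted line marks equal responses. The 245 lower genes lie above the line and the 64 higher genes below it; 25 genes outside ±4.5, none of them called, and mthl8 are not drawn.

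The order of the 4 groups was much the same from one lower gene to the next. In 147 of the 245 lower genes the group means ran from Attp_Glia, the lowest, through PIGA KD_Neuron and Attp_Neuron to PIGA KD_Glia, the highest, and in 44 more the last pair was turned round. All 3 PIGA KD_Glia libraries lay above the other 9 in 95 lower genes (38.8%, against 5.28% of all genes tested), and all 3 Attp_Glia libraries lay below the other 9 in 66 (26.9%, against 2.49%). Both held in 21. PIGA KD_Neuron lay below the other 9 libraries in 5 lower genes and Attp_Neuron above them in 13. Relative to the mean of the 4 groups, the median lower gene stood at −0.17 (log2) in PIGA KD_Neuron, 0.21 in Attp_Neuron, 0.41 in PIGA KD_Glia and −0.44 in Attp_Glia. In these genes the controls of the drivers had a median difference of 0.64 (log2, Attp_Neuron minus Attp_Glia), beside a median of −0.58 between the knockdowns (PIGA KD_Neuron minus PIGA KD_Glia). A negative difference calls for high Attp_Neuron and PIGA KD_Glia and low PIGA KD_Neuron and Attp_Glia, so the order of groups, these shares and these medians come from the values that chose the genes and are a description. The driver line and the driven cell type cannot be told apart. For the 64 higher genes the levels were mirrored, with medians of 0.16, −0.16, −0.32 and 0.29 in the same order of groups, and PIGA KD_Glia lay below the other 9 libraries in 25 (39.1%, against 4.81%).

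Among the gene lists, the assembly factors of the ribosome held the most lower genes, while 226 of the 309 called genes were in no list. Ribosomes are built in the nucleolus, where RNA polymerase I transcribes the precursor of ribosomal RNA, small nucleolar RNAs (snoRNAs) in protein complexes guide its chemical modification, and assembly factors cleave, fold and export the subunits. The complexes come as box C/D particles, which methylate RNA, and box H/ACA particles, which turn uridine to pseudouridine. Lists of these genes, like all lists here, were written with earlier results of these data known, so their counts are descriptions. All 7 tested core proteins of the snoRNA particles were lower, with a median difference of −1.99 (median neuron response −0.68, glia response 1.31), and all 7 were also called for the glia response. Of 37 ribosome assembly factors 27 were lower and 0 higher, all 37 had a difference below 0, and the median was −1.14. Of 10 genes of RNA polymerase I and its factors 4 were lower, with a median of −0.97. Over all genes tested, 3.01% were called and the median difference was 0.02.

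The core proteins of the box C/D particle are nop5, Nop56 and the methyltransferase fibrillarin, Fib. nop5 (FBgn0026196, chr2L:6916753-6918743, dm6) had 46.3, 67.7 and 34.0 CPM in PIGA KD_Neuron, against 81.9, 76.5 and 85.2 CPM in Attp_Neuron. It had 114, 75.7 and 79.8 CPM in PIGA KD_Glia, against 19.3, 27.7 and 20.6 CPM in Attp_Glia. In neither driver did knockdown and control overlap, and the knockdown was the lower group under the neuron driver and the higher group under the glia driver. The difference was −2.72 (SE 0.34, adjusted p = 0.00438), made of a neuron response of −0.72 (adjusted p = 0.244) and a 4.0-fold rise in the glia-specific knockdown (adjusted p = 0.00146). Fib had a difference of −2.29 (SE 0.32, adjusted p = 0.00615), and Nop56 one of −1.99.

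In the box H/ACA particle the pseudouridine synthase is Nop60B, the fly dyskerin. It had 39.7, 64.0 and 40.3 CPM in PIGA KD_Neuron, against 81.1, 74.9 and 77.3 CPM in Attp_Neuron, and 114, 76.9 and 83.4 CPM in PIGA KD_Glia, against 23.0, 32.4 and 24.9 CPM in Attp_Glia. The groups were apart in both drivers, in opposite directions, and the difference was −2.47 (SE 0.29, adjusted p = 0.00419). Its exons overlap 6 annotated snoRNA genes on the same strand. Its partners Nop10, NHP2 and Gar1 had differences of −1.80, −1.64 and −1.41.

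Of the assembly factors, Noc2, which serves the export of the large subunit, had the smallest adjusted p of all lower genes. Noc2 (FBgn0032925, chr2L:21163641-21166090, dm6) had 18.4, 20.5 and 16.8 CPM in PIGA KD_Neuron, against 26.1, 24.6 and 26.4 CPM in Attp_Neuron. It had 33.8, 26.8 and 28.6 CPM in PIGA KD_Glia, against 15.1, 15.6 and 14.1 CPM in Attp_Glia. The knockdown lay wholly below its control under the neuron driver and wholly above it under the glia driver, with a difference of −1.46 (SE 0.15, adjusted p = 0.00291). The largest differences among the assembly factors were those of mbm, a nucleolar protein named for the mushroom body (−1.95, adjusted p = 0.00615), CG8939 (−1.91, adjusted p = 0.00438) and l(2)k09022 (−1.80, adjusted p = 0.00734). l(1)G0020, the fly NAT10 acetyltransferase of ribosomal RNA, and the genes FBgn0284251 and CG12134, all outside the lists, were as sharp, at −2.2, −1.60 and −1.51 with an adjusted p of 0.00419 each. For l(1)G0020 the values were 8.31, 11.6 and 7.66 CPM in PIGA KD_Neuron against 13.6, 13.9 and 15.3 CPM in Attp_Neuron, and 20.0, 14.0 and 15.2 CPM in PIGA KD_Glia against 5.69, 5.61 and 5.25 CPM in Attp_Glia.

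Of the 10 RNA polymerase I genes, 6 had their lowest mean in Attp_Glia and 8 their highest in PIGA KD_Glia. No share over all genes is given for these means, so both counts are a description of the RNA polymerase I genes. Polr1A, the catalytic subunit, had 25.4, 28.4 and 22.9 CPM in PIGA KD_Neuron, against 29.5, 36.8 and 33.2 CPM in Attp_Neuron, and 47.7, 39.4 and 41.1 CPM in PIGA KD_Glia, against 23.8, 23.4 and 19.5 CPM in Attp_Glia. Its difference was −1.32 (SE 0.17, adjusted p = 0.00438), that of Polr1B was −1.57 (SE 0.24, adjusted p = 0.00734) and that of Polr1E −1.25 (SE 0.24, adjusted p = 0.0186). Polr1C was also called, at −1.03. The gene annotated as the ribosomal RNA precursor, pre-rRNA:CR45845, had a glia response of 3.95, with 0.943, 0.630 and 1.21 CPM in PIGA KD_Glia against 0.0825, 0.0392 and 0.0370 CPM in Attp_Glia, and a neuron response of 0.01. Its difference was −3.94 (SE 0.60, adjusted p = 0.00734). These are few reads of a repeated locus in libraries made from mRNA, and reads may be shared with its other copies and with the ribosomal RNA genes inside it.

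snoRNAs are cut from the introns of other transcripts, some of which, the U snoRNA host genes, have no other known product. Of 6 tested host genes 4 were lower (66.7%, against 3.01% of all genes tested) and the median difference was −1.96. The count was 1 without PIGA KD_Neuron replicate 1, 5 without Attp_Glia replicate 2 and 3 without both libraries high in muscle transcripts. Uhg4 had 3.51, 6.51 and 2.64 CPM in PIGA KD_Neuron, against 6.33, 15 and 5.29 CPM in Attp_Neuron, and 16.1, 16.7 and 8.45 CPM in PIGA KD_Glia, against 3.49, 4.82 and 2.33 CPM in Attp_Glia. The neuron groups overlapped and the glia groups did not, and the difference was −3.03 (SE 0.65, adjusted p = 0.0311), with an adjusted p of 0.0589 without both libraries high in muscle transcripts. Uhg1 followed at −2.49 (SE 0.54, adjusted p = 0.0317) and Uhg8 at −2.35 (SE 0.39, adjusted p = 0.0099). A family of annotated snoRNA genes, added after the values were seen, had 34 members tested, 33 of them below 0, and 6 were lower: snoRNA:Or-aca1 at −4.32 (SE 0.85, adjusted p = 0.0202), snoRNA:Psi18S-1377d at −3.49, snoRNA:Psi18S-920 at −3.33, snoRNA:229 at −3.32, snoRNA:Psi28S-1837a at −3.12 and snoRNA:Psi28S-2626 at −2.98. These 6 were 17.6% of the family, against 3.01% of all genes tested, and none of them exceeded 1.92 CPM in any library. With both libraries high in muscle transcripts left out, 1 of the family was called.

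Summed markers of fat body and blood cells also differed between groups. The 5 fat body markers summed to 11970, 6513 and 5266 CPM in PIGA KD_Neuron, against 5862, 6179 and 5399 CPM in Attp_Neuron, and to 8447, 12874 and 6672 CPM in PIGA KD_Glia, against 2215, 4488 and 4822 CPM in Attp_Glia. In this sum the glia groups did not overlap and the neuron groups did. The 4 blood cell markers summed to 506 to 644 CPM in PIGA KD_Neuron against 631 to 918 CPM in Attp_Neuron, and to 553 to 698 CPM in PIGA KD_Glia against 401 to 536 CPM in Attp_Glia. None of the 3 tested fat body markers and none of the 4 blood cell markers was itself called for the difference, and their part in the nucleolar result was not tested. With both libraries high in muscle transcripts left out, 7 of 7 core proteins, 23 of 37 assembly factors and 4 of 10 RNA polymerase I genes were called. Leaving out 1 library at a time gave 17 assembly factors without PIGA KD_Glia replicate 1 and 33 without Attp_Glia replicate 2.

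**Figure D2:**
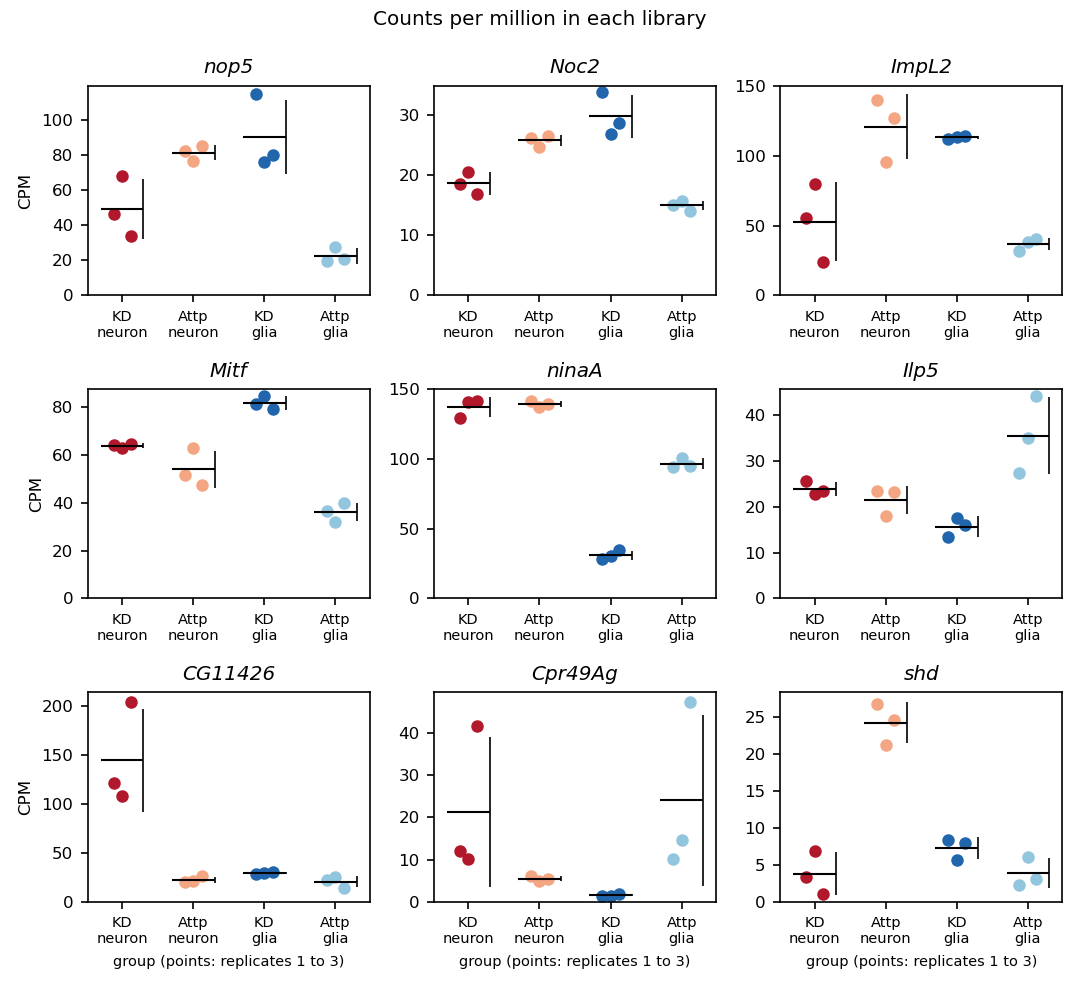
CPM of 9 genes in the 12 libraries; points are replicates 1 to 3 from left to right, horizontal bars the group means and vertical bars ± 1 SD (n = 3). nop5, Noc2 and ImpL2 are low in PIGA KD_Neuron and Attp_Glia, ninaA is low in PIGA KD_Glia alone, and CG11426 is high in PIGA KD_Neuron alone.

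Genes of the cytoplasmic ribosomal protein family had smaller differences than the assembly factors. All 83 tested members of the family had a difference below 0 and their lowest group mean in Attp_Glia, with a median difference of −0.55. No share over all genes is given for the lowest mean, so that count is a description. Of the 83 members, 23 had an unadjusted p under 0.05 and DESeq2 called 11 lower. The only edgeR call was RpLP0-like, a relative of the stalk protein RpLP0 and not RpLP0 itself (−1.39, SE 0.18, adjusted p = 0.00438). It made up 1.2% of the family, against 3.01% called of all genes tested. The summed level of the family was 63572 to 88597 CPM in PIGA KD_Neuron, 86211 to 95740 CPM in Attp_Neuron, 85368 to 94154 CPM in PIGA KD_Glia and 48626 to 93079 CPM in Attp_Glia. Attp_Glia replicate 2 was the high library of its group, and without it 19 ribosomal genes were called. The median difference of the family was −0.35 without Attp_Glia replicate 3 and −0.21 without both libraries high in muscle transcripts, with 1 gene called without both. The mitochondrial ribosomal proteins had 0 of 71 called by edgeR, against 3.01% of all genes tested, and a median of 0.15. Of them, 11 had an unadjusted p under 0.05 and DESeq2 called 1.

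Enzymes that charge tRNAs with amino acids were lower in part. Of 33 tested aminoacyl-tRNA synthetases 6 were called lower (18.2%, against 3.01% of all genes tested), 0 higher, and the median difference was −0.26. IleRS had 85.6, 88.4 and 72 CPM in PIGA KD_Neuron, against 103, 120 and 118 CPM in Attp_Neuron, and 114, 98.8 and 105 CPM in PIGA KD_Glia, against 61.9, 66.7 and 54.2 CPM in Attp_Glia. The groups were apart in both drivers and the difference was −1.27 (SE 0.15, adjusted p = 0.00438). LeuRS had a difference of −1.26 (adjusted p = 0.00734) and AsnRS, which was called in 2 of the 12 fits that left out 1 library, of −1.08 (adjusted p = 0.0423). Without Attp_Neuron replicate 2 the count fell to 2 synthetases and without Attp_Glia replicate 2 it was 10. Of the amino acid enzymes 2 of 34 (5.88%, against 3.01% of all genes tested) were called lower and 0 higher. The list as a whole leaned the other way, with a median difference of 0.36 and 21 of 34 genes above 0. DESeq2 called 3 higher and 3 lower. Without both libraries high in muscle transcripts, 3 were called higher and 2 lower. AsnS, asparagine synthetase, had 110, 90.7 and 58.9 CPM in PIGA KD_Neuron against 145, 133 and 183 CPM in Attp_Neuron, and 111, 111 and 113 CPM in PIGA KD_Glia against 58.1, 56.7 and 44.8 CPM in Attp_Glia, a difference of −1.90 (SE 0.28, adjusted p = 0.00695). Cbs, which joins homocysteine to serine, had a difference of −0.98 (adjusted p = 0.0137). Among the growth regulators the transcription factor Myc stood at −1.41 (adjusted p = 0.121) and was not called, and only Sesn, the stress-induced inhibitor of TOR, was called, with a higher difference of 0.59 (SE 0.14, adjusted p = 0.0472).

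Of 14 tested genes of the insulin list, 1 was higher and 2 were lower (21.4% called, against 3.01% of all genes tested). ImpL2, a secreted protein that binds and holds back insulin-like peptides, had 55.3, 79.8 and 23.7 CPM in PIGA KD_Neuron, against 141, 95.5 and 127 CPM in Attp_Neuron. It had 112, 114 and 114 CPM in PIGA KD_Glia, against 31.6, 38 and 40.5 CPM in Attp_Glia. The groups did not overlap in either driver, and the difference was −2.82 (SE 0.46, adjusted p = 0.0085). Ilp5, an insulin-like peptide of the insulin-producing cells of the brain, moved the other way, with 25.6, 22.7 and 23.4 CPM in PIGA KD_Neuron against 23.4, 17.9 and 23.1 CPM in Attp_Neuron, and 13.3, 17.6 and 16.1 CPM in PIGA KD_Glia against 27.3, 35.0 and 44.1 CPM in Attp_Glia. Its difference of 1.33 (SE 0.24, adjusted p = 0.0144) lay in the glia driver. foxo, the transcription factor that insulin signalling restrains, had a difference of −0.66 (SE 0.15, adjusted p = 0.0371). The other 11 tested genes of this list, among them Ilp2, Ilp3 and InR, were not called, and the list's median was −0.07.

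shd encodes the cytochrome P450 that converts ecdysone into the active hormone 20-hydroxyecdysone. It had 3.36, 6.92 and 1.09 CPM in PIGA KD_Neuron, against 26.8, 21.3 and 24.7 CPM in Attp_Neuron, and 8.30, 5.63 and 8.01 CPM in PIGA KD_Glia, against 2.28, 6.12 and 3.14 CPM in Attp_Glia. Attp_Neuron alone was high, and the glia groups overlapped. The difference was −3.61 (SE 0.71, adjusted p = 0.0206), of which −2.67 was the neuron response. Nepl4, a neprilysin-like peptidase gene, had 25.5, 47.8 and 26.1 CPM in PIGA KD_Neuron, against 111, 98.0 and 120 CPM in Attp_Neuron, and 64.5, 44.8 and 66.0 CPM in PIGA KD_Glia, against 18.9, 37.5 and 14.7 CPM in Attp_Glia. Attp_Neuron was again the highest group, and no groups overlapped within a driver. Its difference was −3.03 (SE 0.48, adjusted p = 0.00734). Among the genes of sex determination and yolk, dsx was lower (−1.04, SE 0.18, adjusted p = 0.0128), and Obp99b, described further on, was higher.

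In a further set of lower genes PIGA KD_Glia was the highest group and the neuron response was small and not below 0. Mitf, the transcription factor of lysosome and V-ATPase genes, had 64.0, 62.8 and 64.7 CPM in PIGA KD_Neuron, against 51.8, 62.7 and 47.4 CPM in Attp_Neuron, and 81.3, 84.8 and 79.2 CPM in PIGA KD_Glia, against 36.7, 32.0 and 39.8 CPM in Attp_Glia. PIGA KD_Glia was the highest and Attp_Glia the lowest group, and PIGA KD_Neuron lay just above Attp_Neuron. Its glia response was 1.18, its neuron response 0.24 and the difference −0.93 (SE 0.15, adjusted p = 0.0085). The other 19 tested genes of its list, V-ATPase subunits and autophagy genes, were not called. With Mitf, 5% of the list was called, against 3.01% of all genes tested. Gli, gliotactin, a protein of the septate junctions that seal the blood-brain barrier, had 40.8, 36.3 and 42.9 CPM in PIGA KD_Neuron, against 39.5, 38.2 and 38.5 CPM in Attp_Neuron, and 85.0, 86.8 and 78.4 CPM in PIGA KD_Glia, against 44.0, 38.7 and 44.9 CPM in Attp_Glia. All 3 PIGA KD_Glia libraries lay far above the other 9, and the difference was −0.93 (SE 0.12, adjusted p = 0.00438). Ncc69, a cotransporter of sodium, potassium and chloride, had a difference of −0.88 (SE 0.19, adjusted p = 0.035), with 284, 282 and 254 CPM in PIGA KD_Glia and 99 to 154 CPM in the other 9 libraries. Of the 22 glia and barrier genes only Gli and wrapper, an adhesion protein of midline glia (−0.64, adjusted p = 0.0302), were called for the difference. That is 9.09% of the list, against 3.01% of all genes tested. The 7 glia markers summed to 1966 to 2851 CPM in PIGA KD_Neuron, 1791 to 1882 CPM in Attp_Neuron, 2560 to 2778 CPM in PIGA KD_Glia and 1994 to 2747 CPM in Attp_Glia. Nep4, another neprilysin, and nemy, picked after their values were seen, were of the same kind: Nep4 had 257 to 262 CPM in PIGA KD_Glia and 131 to 166 CPM elsewhere, and a difference of −0.86 (adjusted p = 0.00565), and nemy had 69.1 to 80.7 CPM in PIGA KD_Glia and 22.8 to 37.3 CPM elsewhere, and a difference of −0.99 (adjusted p = 0.0264).

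The sharpest difference of all genes tested was that of ninaA, a chaperone of the endoplasmic reticulum that photoreceptors need to fold the rhodopsin Rh1. ninaA (FBgn0002936, chr2L:877302-878270, dm6) had 129, 141 and 141 CPM in PIGA KD_Neuron, against 141, 137 and 140 CPM in Attp_Neuron. It had 28.0, 30.6 and 34.4 CPM in PIGA KD_Glia, against 94.0, 101 and 95.0 CPM in Attp_Glia. It was thus 3.12-fold lower in the glia-specific knockdown (adjusted p = 5.76e-06) with a neuron response of −0.02, and the difference was 1.62 (SE 0.12, adjusted p = 0.000226). inaD, the scaffold of the phototransduction complex, had 674, 760 and 674 CPM in PIGA KD_Neuron, against 716, 641 and 688 CPM in Attp_Neuron, and 319, 292 and 359 CPM in PIGA KD_Glia, against 560, 558 and 677 CPM in Attp_Glia, a difference of 0.93 (SE 0.17, adjusted p = 0.0139). Its exons overlap RpL23 on the opposite strand, which was not called (difference −0.24). Of 29 phototransduction genes these were the only members called by edgeR (6.9%, against 3.01% of all genes tested), and the list's median was 0.34. Of the 29, 20 were above 0, 10 had an unadjusted p under 0.05 and DESeq2 called 7 higher. Without both libraries high in muscle transcripts, 3 were called higher and 1 lower. The rhodopsins ninaE, Rh3, Rh4, Rh5 and Rh6 had differences of −0.15 to 0.52. ninaG, an oxidoreductase of visual chromophore synthesis outside the list and picked after its values were seen, had a difference of 0.61 (SE 0.15, adjusted p = 0.0447). The photoreceptor markers summed to 29488 to 46434 CPM in PIGA KD_Neuron, 45173 to 46291 CPM in Attp_Neuron, 34239 to 38496 CPM in PIGA KD_Glia and 37124 to 46368 CPM in Attp_Glia, and their part in these results was not tested.

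asRNA:CR45209, an antisense gene opposite gb, had the same shape as ninaA. It had 6.73, 7.25 and 6.53 CPM in PIGA KD_Neuron, against 6.90, 5.97 and 7.48 CPM in Attp_Neuron, and 2.14, 2.36 and 2.19 CPM in PIGA KD_Glia, against 6.21, 6.82 and 7.88 CPM in Attp_Glia, a difference of 1.65 (SE 0.19, adjusted p = 0.00419). gb itself had a difference of 0.36 (adjusted p = 0.186), and without a stated strand its reads and those of the antisense gene cannot be told apart. Alas, which makes the precursor of haem, had a glia response of −0.88 and a difference of 1.05 (SE 0.15, adjusted p = 0.00617). CG4842 and Acsx3 had differences of 1.26 (SE 0.15, adjusted p = 0.00419) and 0.94 (SE 0.12, adjusted p = 0.00438). CG4842 had 82.5, 83.2 and 82.6 CPM in PIGA KD_Neuron against 67.4, 65.0 and 62.2 CPM in Attp_Neuron, and 32.6, 30.4 and 37.3 CPM in PIGA KD_Glia against 54.4, 61.4 and 71.7 CPM in Attp_Glia. Its groups were apart in both drivers, the knockdown above its control in one and below it in the other.

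Only 7 genes called for the difference were also called for the neuron response, and those that the rule for naming genes did not reach were named after their values were seen. CG11426, from the list of lipid genes, had the largest positive neuron response of them. CG11426 (FBgn0037166, chr3L:22470556-22473509, dm6) had 121, 108 and 205 CPM in PIGA KD_Neuron, against 20.1, 21.1 and 25.9 CPM in Attp_Neuron. It had 28.0, 28.9 and 30 CPM in PIGA KD_Glia, against 21.9, 25.8 and 14.0 CPM in Attp_Glia. It rose 6.48-fold in the neuron-specific knockdown (adjusted p = 0.00114), had a glia response of 0.49 (adjusted p = 0.243), and differed by 2.2 (SE 0.36, adjusted p = 0.00811). CG14567 also rose in the neuron-specific knockdown (neuron response 1.45, glia response 0.41), with a difference of 1.04 (adjusted p = 0.0202). CG31220 fell under the neuron driver (−2.91, glia response −0.66), with a difference of −2.26 (adjusted p = 0.0391), as did the long noncoding RNA lncRNA:CR44662 (−1.04, glia response 0.10), with a difference of −1.14 (adjusted p = 0.0194). RNaseZ, which trims the 3′ ends of tRNAs, had 14.3, 16.2 and 10.8 CPM in PIGA KD_Neuron against 26.5, 25.1 and 32.8 CPM in Attp_Neuron, and a difference of −1.63 (adjusted p = 0.00734). nkd, an inhibitor of Wingless signalling, had a neuron response of −0.90 and a difference of −1.22 (adjusted p = 0.00734). peg was the 1 gene called in both drivers and in opposite directions, at −0.94 in the neuron-specific and 0.64 in the glia-specific knockdown, with a difference of −1.57 (adjusted p = 0.00615).

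**Figure D3:**
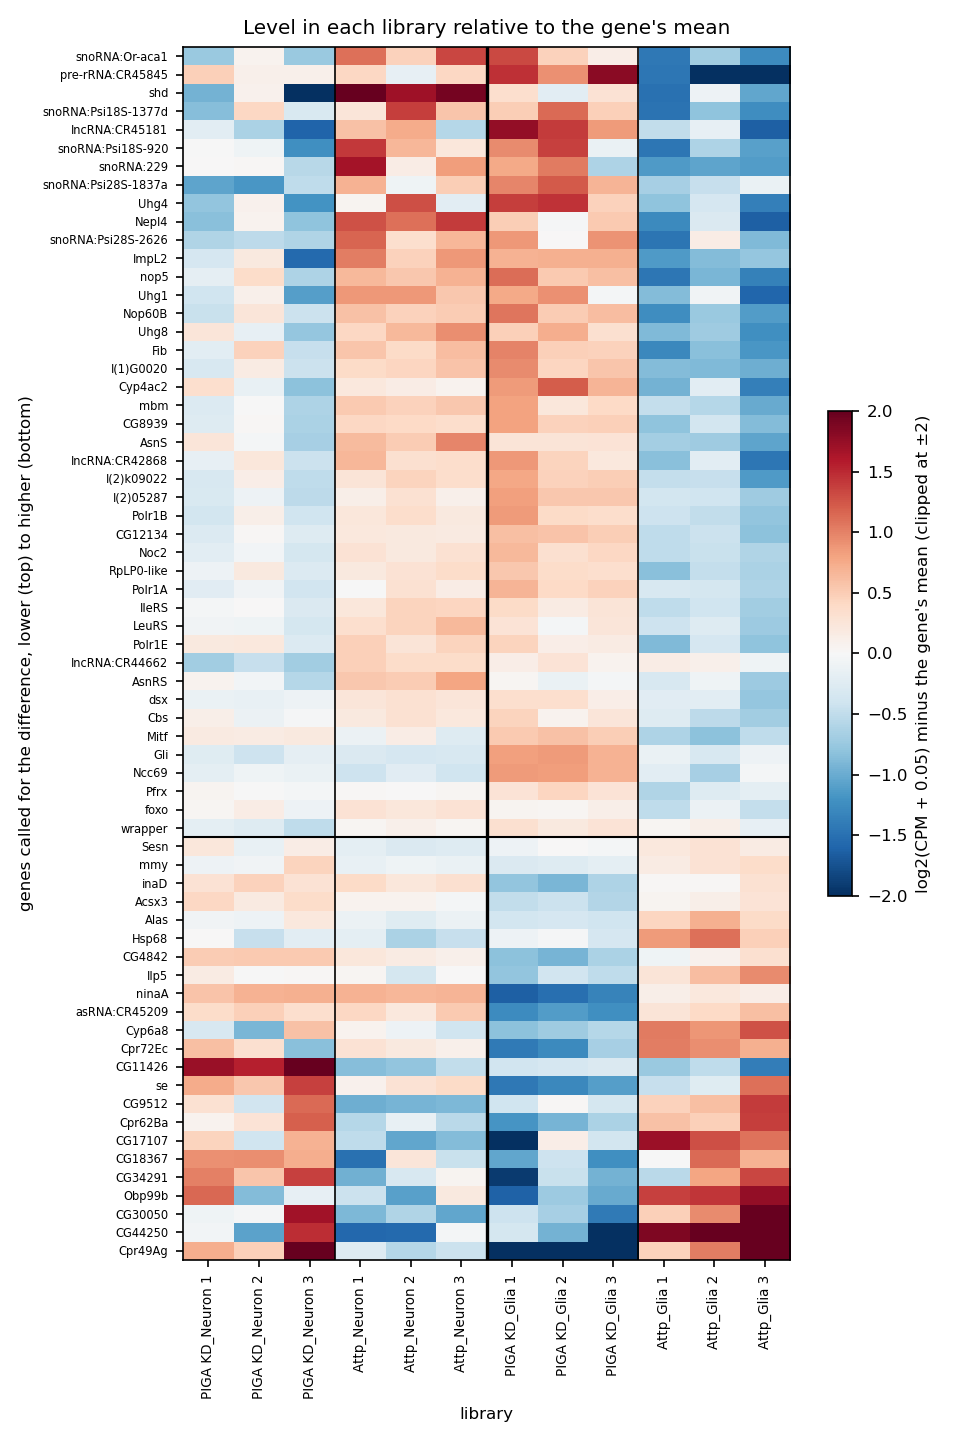
Level of the called genes that the naming rule reached (rows, from the most negative difference at the top to the most positive at the bottom) in the 12 libraries (columns), as log2(CPM + 0.05) minus the gene's mean. Many rows of the upper block are low in Attp_Glia and, less so, in PIGA KD_Neuron. Among the exceptions, Gli and Ncc69 are high in PIGA KD_Glia alone and shd in Attp_Neuron alone, while wrapper and lncRNA:CR44662 are lowest in PIGA KD_Neuron. In the lower block ninaA, asRNA:CR45209 and inaD are low in PIGA KD_Glia alone.

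The largest positive differences belonged to cuticle genes and to genes of unknown role, and several of these were high in the libraries that were high in muscle transcripts. Cpr49Ag, a cuticle protein gene (FBgn0033730, chr2R:12407793-12408523, dm6), had 12.1, 10.1 and 41.7 CPM in PIGA KD_Neuron, against 6.04, 4.88 and 5.38 CPM in Attp_Neuron. It had 1.41, 1.4 and 1.74 CPM in PIGA KD_Glia, against 10.0, 14.7 and 47.3 CPM in Attp_Glia. The highest value in each raised group came from replicate 3, yet no groups overlapped within a driver. The difference was 5.94 (SE 0.93, adjusted p = 0.00734), and 4.04 (adjusted p = 0.000165) without those libraries. Of 29 tested cuticle proteins of this family 3 were called (10.3%, against 3.01% of all genes tested). The median difference of 2.35 was 0.40 without the pair. Cpr62Ba (2.95, SE 0.56, adjusted p = 0.0169) was the next, and Cpr72Ec (1.93, SE 0.42, adjusted p = 0.0331) was not high in those libraries, with 148, 122 and 54.4 CPM in PIGA KD_Neuron against 119, 111 and 104 CPM in Attp_Neuron, and 36.4, 40.2 and 61.3 CPM in PIGA KD_Glia against 197, 186 and 159 CPM in Attp_Glia.

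The same naming rule gave CG44250 (5.55, adjusted p = 0.0364), CG30050 (3.77, adjusted p = 0.0264), Obp99b (3.25, adjusted p = 0.0233), CG34291 (3.24, adjusted p = 0.0398), CG18367 (3.21, adjusted p = 0.0463), CG17107 (3.17, adjusted p = 0.0352), CG9512 (2.53, adjusted p = 0.0175) and se (2.25, adjusted p = 0.037). CG44250, CG34291 and CG18367 were not called without the pair. They rest on few reads, with at most 1.26, 2.19 and 0.667 CPM in any library. Of the 12 fits that left out 1 library, 3, 2 and 2 called them. Exons of CG44250 overlap CG44251 on the same strand. Obp99b, an odorant-binding protein, had 22.1, 5.46 and 8.90 CPM in PIGA KD_Neuron against 7.40, 4.68 and 11.5 CPM in Attp_Neuron, and 3.23, 6.02 and 4.92 CPM in PIGA KD_Glia against 25.8, 27.1 and 33.8 CPM in Attp_Glia, so that Attp_Glia alone was high. It was the only member called of 28 odorant-binding proteins (3.57%, against 3.01% of all genes tested). se, sepia, an enzyme of the red eye pigments, had 33.3, 29.0 and 51.5 CPM in PIGA KD_Neuron against 21.2, 24.4 and 26.0 CPM in Attp_Neuron, and 7.40, 8.15 and 9.26 CPM in PIGA KD_Glia against 14.4, 16.9 and 42.9 CPM in Attp_Glia. It was the only member called of 17 eye pigment genes (5.88%, against 3.01% of all genes tested). A single call in a list of this size is not a result about the list. Other called members of lists were the heat shock gene Hsp68 (1.19, adjusted p = 0.0302), mmy, the last enzyme of UDP-GlcNAc synthesis (0.76, adjusted p = 0.0451), the cytochromes Cyp6a8 (1.83, adjusted p = 0.0472) and Cyp4ac2 (−1.98, adjusted p = 0.0315), Pfrx, which sets the level of a regulator of glycolysis (−0.70, adjusted p = 0.0371), and the noncoding lncRNA:CR45181 (−3.42, adjusted p = 0.0315) and lncRNA:CR42868 (−1.87, adjusted p = 0.0364).

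Muscle and mitochondrial genes had large median differences with no member called by edgeR. With 3.01% of all genes called, lists of 12 to 32 genes would hold few or no calls. The counts of 0 given here are thus not a result about their members. All 22 tested sarcomere genes had a difference above 0, the median was 2.03, and 19 had an unadjusted p under 0.05, but none passed over all genes in edgeR and 3 did in DESeq2. Mlc2, a myosin light chain, stood at 3.71 (SE 1.17, adjusted p = 0.108). The sarcomere genes summed to 8932, 8094 and 26587 CPM in PIGA KD_Neuron, against 7849 to 8207 CPM in Attp_Neuron, and to 5974 to 6323 CPM in PIGA KD_Glia, against 7310, 6760 and 27947 CPM in Attp_Glia. Without both high libraries the median was 0.45. Respiratory complex I (0 of 32 called, median 0.67), complexes III and IV (0 of 16, median 0.87), ATP synthase (0 of 12, median 0.90) and the TCA cycle (0 of 18, median 0.71) had medians of 0.21, 0.26, 0.25 and 0.06 without them. An unadjusted p under 0.05 was reached by 22, 10, 8 and 5 genes of these lists, and DESeq2 called 6, 3, 3 and 1. Glycolysis had a median of 0.61, or 0.29 without the pair. Of its 17 tested genes 15 were above 0 and 10 had an unadjusted p under 0.05. For this list edgeR called 1 gene (5.88%, against 3.01% of all genes tested), Pfrx, which was lower. DESeq2 called 5 higher and 1 lower. The pentose phosphate, trehalose and glycogen list had a median of 0.74, or 0.45 without the pair. It had 0 of 18 called by edgeR, 7 at an unadjusted p under 0.05 and 4 called higher by DESeq2.

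**Figure D4:**
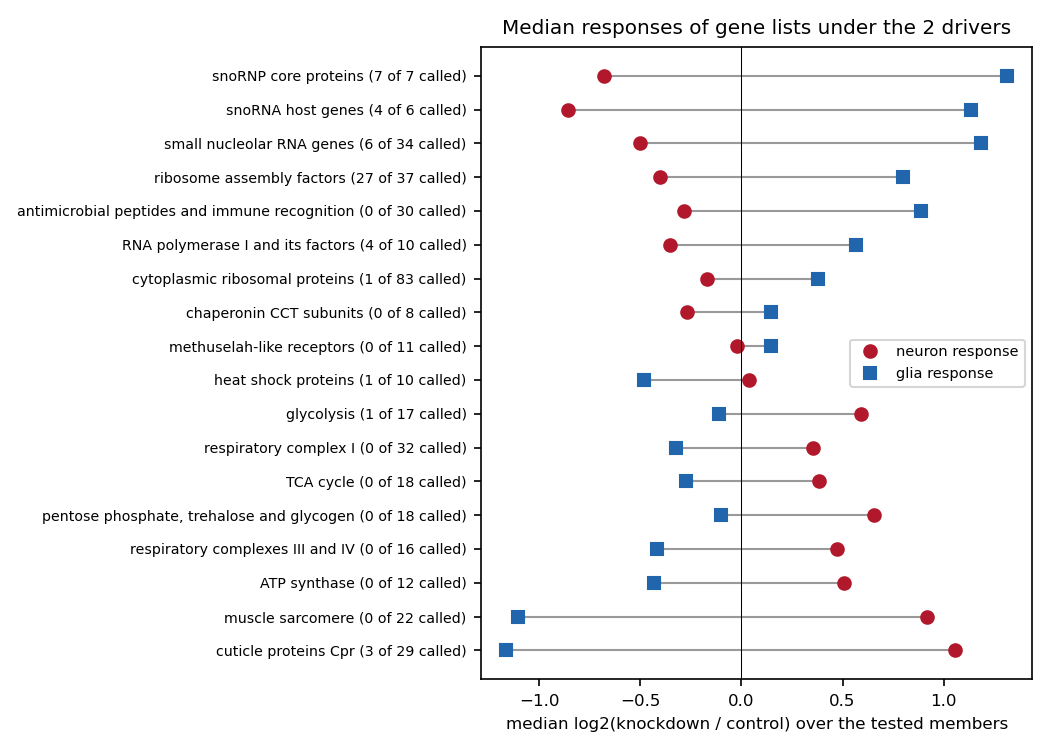
Median neuron response (circles) and median glia response (squares), in log2, of the 9 lists with the lowest and the 9 with the highest median difference among lists with at least 6 members tested; the count called is in each label. The nucleolar lists lie left of 0 for the neuron driver and right of 0 for the glia driver, and the muscle and cuticle lists the other way round.

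With 3.01% of all genes called, lists of 14 to 32 genes would hold few or no calls at the background share. The counts of 0 and 1 that follow are thus not a result about their members. Of 23 tested genes of GPI anchor synthesis 0 were called by edgeR for the difference, 3 had an unadjusted p under 0.05 and the median was −0.10. GAA1, a subunit of the transamidase that attaches the anchor, had the smallest p of the list (difference −0.42, adjusted p = 0.107). Of 18 genes for GPI-anchored adhesion proteins and enzymes, 1 (wrapper) was called. Lists of the secretory pathway also had 0 called by edgeR: the signal recognition particle and Sec61 translocon (0 of 20, with 4 at an unadjusted p under 0.05), N-glycosylation (0 of 21, with 2), ER stress and ERAD (0 of 14, with 3) and the COPI and COPII coats (0 of 25, with 1). ER folding had 1 of 15, which was ninaA. Of the lists of nerve cell genes, synaptic vesicles and release had 0 of 23 (0 at an unadjusted p under 0.05), Dpr and DIP adhesion proteins 0 of 32 (2), neuropeptides 0 of 25 (6) and channels and receptors 1 of 31 (Ncc69). These counts cover the listed genes only: the peptide genes Capa (−1.29) and Trissin (−0.89) and the potassium channel Ork1 (−1.76), outside the lists and picked after their values were seen, were called lower. Immune peptides and recognition proteins had 0 of 30 called with 9 at an unadjusted p under 0.05 and a median of −0.97. Their summed level was 6492 and 7102 CPM in PIGA KD_Glia replicates 2 and 3 and 1280 to 2329 CPM in the other 10 libraries, and DptA, the antimicrobial diptericin, had 0.798, 579 and 730 CPM in PIGA KD_Glia (difference −9.68, SE 2.49, adjusted p = 0.0611). In the lists named here with 0 calls by edgeR, DESeq2 called 4 immune genes, 2 of N-glycosylation, 1 of Dpr and DIP and 0 of the rest.

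Near the threshold, the called gene with the largest adjusted p was CG11030 (0.049975). Among genes past 1.5-fold that were not called, the smallest adjusted p (0.05103) was that of lt. Stt3A, of the N-glycosylation list, had the same adjusted p. The count of calls moved with single libraries, as the plot of calls without each library shows. Without PIGA KD_Glia replicate 1 there were 17 higher and 113 lower genes, and without Attp_Glia replicate 2 there were 103 and 382. All 309 called genes kept the sign of their difference in the 12 fits that left out 1 library each. Genes chosen for a large difference mostly keep its sign when most libraries are shared, so the signs describe the choice. The calls themselves were less stable: 16 higher and 104 lower genes were called in all 12 fits. Among these are nop5, Nop60B, Noc2, ImpL2, Mitf, Gli, ninaA, Ilp5, CG11426 and Cpr49Ag. Of the 96 named genes called, 27 were not called without both libraries high in muscle transcripts. These were Uhg4, the snoRNAs named above other than snoRNA:Psi28S-1837a, the noncoding genes lncRNA:CR45181, lncRNA:CR42868 and lncRNA:CR44662, and the lower genes CG31220, SamDC, Agpat4, Mtr4, Seipin, Pus1, Nup160, Dis3, foxo and wrapper. The others were the higher genes Sesn, ninaG, LPCAT, mmy, Cyp6a8, CG18367, CG34291 and CG44250. Exons of another gene overlap 17 of the 64 higher and 87 of the 245 lower genes.

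**Figure D5:**
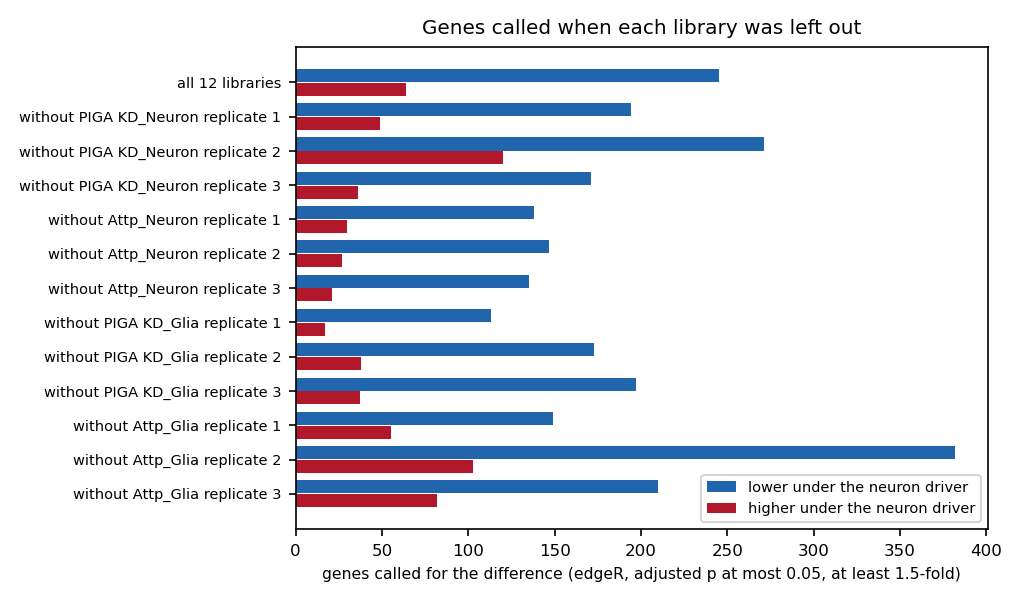
Number of genes called for the difference (x axis) with all 12 libraries and without each library in turn, split into lower and higher. The lower count ran from 113 without PIGA KD_Glia replicate 1 to 382 without Attp_Glia replicate 2.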

How the data were processed

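The deposited values are raw counts, 1 row for each FlyBase gene ID. The authors prepared stranded mRNA libraries from heads, used seqtk and Bowtie2 with the dm6 assembly, and deposited counts of all 12 libraries in 1 table; the counting tool and its use of strand are not given in the sources used here. The deposited DESeq2 tables of the authors' own comparisons (fold changes and p-values) were not used. Symbols were found for 17599 of 17737 IDs. In R 4.3.3, counts were fitted with edgeR 4.0.16 (TMM, default filter, 4 group means, quasi-likelihood F test, two-sided, Benjamini-Hochberg over all genes). CPM use TMM-scaled library sizes. Alternatives were DESeq2 1.42.0, limma 3.58.1 (voom with library weights), RLE scaling, other filters, robust spread, a replicate block and leaving out each library.

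Members, lists and naming rule were chosen with earlier results of these data known. Named were PIG-A and mthl8; the 10 largest called differences in each direction with at least 10 counts and a stable sign; the 5 smallest adjusted p in each direction; the 5 smallest with opposite, separate responses past 1.5-fold; and up to 3 called members of each list, or the smallest p. Exceptions picked after their values were seen are marked in the text. Replicates are separate libraries of a group, and no source says that they come from separate crosses. No 2 replicates agreed within counting error (chi-square divided by genes, 7.95 to 286). Samples with the same number did not pair: of 18 same-numbered pairs of libraries, 5 had deviations correlated over 0.1.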

Additional observations from a re-analysis of the deposited data

Results flagged for a closer look

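Each result of this kind was picked because the knockdown response differed between the drivers by a direct test, the interaction in the edgeR fit of 12 libraries. There were 64 genes with a higher and 245 with a lower response under the neuron driver. With 3 libraries a group, single libraries were not tested as outliers. The values are the neuron response minus the glia response (log2), from the most negative.

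From the lowest value upward came snoRNA:Or-aca1 (−4.32), pre-rRNA:CR45845 (−3.94), shd (−3.61), snoRNA:Psi18S-1377d (−3.49), lncRNA:CR45181 (−3.42), snoRNA:Psi18S-920 (−3.33), snoRNA:229 (−3.32), snoRNA:Psi28S-1837a (−3.12), Uhg4 (−3.03), Nepl4 (−3.03), snoRNA:Psi28S-2626 (−2.98) and ImpL2 (−2.82). Next were nop5 (−2.72), Uhg1 (−2.49), Nop60B (−2.47), Uhg8 (−2.35), Fib (−2.29), srl (−2.26), CG31220 (−2.26), l(1)G0020 (−2.2), Cyp4ac2 (−1.98), mbm (−1.95), CG8939 (−1.91) and AsnS (−1.90). They were followed by lncRNA:CR42868 (−1.87), l(2)k09022 (−1.80), Ork1 (−1.76), daw (−1.75), RNaseZ (−1.63), FBgn0284251 (−1.60), peg (−1.57), Polr1B (−1.57), CG12134 (−1.51), Noc2 (−1.46), Rrp45 (−1.40) and RpLP0-like (−1.39). Differences nearer to 0 belonged to Polr1A (−1.32), Capa (−1.29), IleRS (−1.27), LeuRS (−1.26), Polr1E (−1.25), nkd (−1.22), lncRNA:CR44662 (−1.14), AsnRS (−1.08), dsx (−1.04), Elp3 (−1.02), SamDC (−1.01) and Elp2 (−1.0). Closer still were Nsun2 (−1.0), nemy (−0.99), Cbs (−0.98), Agpat4 (−0.97), Mitf (−0.93), Gli (−0.93), Hmgs (−0.92), Mtr4 (−0.90), Trissin (−0.89), Ncc69 (−0.88), Nep4 (−0.86) and Nup188 (−0.84). The smallest negative differences among the named genes were those of Seipin (−0.80), Nup154 (−0.76), Pus1 (−0.72), Nup160 (−0.70), Pfrx (−0.70), Dis3 (−0.67), foxo (−0.66) and wrapper (−0.64).

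On the positive side, the largest differences were those of Cpr49Ag (5.94), CG44250 (5.55), CG30050 (3.77), Obp99b (3.25), CG34291 (3.24), CG18367 (3.21), CG17107 (3.17), Cpr62Ba (2.95), CG9512 (2.53), se (2.25), CG11426 (2.2) and Cpr72Ec (1.93). After these came Cyp6a8 (1.83), asRNA:CR45209 (1.65), ninaA (1.62), Ilp5 (1.33), CG4842 (1.26), Hsp68 (1.19), Alas (1.05), CG14567 (1.04), Acsx3 (0.94), inaD (0.93), mmy (0.76) and LPCAT (0.70). The smallest positive differences were those of Dgkepsilon (0.69), dpp (0.69), ninaG (0.61) and Sesn (0.59).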

How the results depend on the processing

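No called gene changed sign under any alternative run, which is likely for genes chosen for a large difference in the same libraries. DESeq2 called 263 higher and 417 lower genes, 38.7% of them higher against 20.7% with edgeR, and limma-voom with library weights called 144 and 431; DESeq2 kept 64 of the 64 higher and 243 of the 245 lower genes. The neuron response genes called numbered 196 with DESeq2 and 114 with limma-voom (30 with edgeR), the glia response genes called 953 with limma-voom (538), and the list members 181 and 145 with DESeq2 and limma-voom (83). Over the fits that left out 1 library each, the counts were 17 to 120 higher, 113 to 382 lower, 13 to 97 for the neuron response, 260 to 722 for the glia response and 45 to 130 list members, against 64, 245, 30, 538 and 83; the cause of these shifts was not tested. The neuron response had 93 calls without PIGA KD_Neuron replicate 2 and 97 without Attp_Glia replicate 3. Leaving out both libraries high in muscle transcripts, chosen after seeing the data, gave 112 higher genes and 115 for the neuron response. A replicate block gave 80 higher and 285 lower genes, 55 and 231 of them the same genes; replicate numbers did not pair the libraries, whose same-numbered correlations ran from −0.226 to 0.681. Scaling by RLE, the other filters and the robust spread kept both counts within 1.5 times. Of the 96 named genes called, 52 were lost without PIGA KD_Glia replicate 1, the most for any library. Genes under about 1 CPM rest on few reads, and 3 libraries a group limit the rest.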

Other observations

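Outside the lists, and picked after their values were seen, further genes of RNA handling were lower under the neuron driver. Of the RNA exosome, which trims ribosomal RNA precursors, Rrp45 had 5.97, 6.92 and 5.36 CPM in PIGA KD_Neuron, against 8.13, 7.83 and 8.91 CPM in Attp_Neuron, and 11.9, 10.2 and 10.5 CPM in PIGA KD_Glia, against 5.36, 6.63 and 4.81 CPM in Attp_Glia (difference −1.40, SE 0.20, edgeR adjusted p = 0.00682). The exosome nuclease Dis3 and the helicase Mtr4 had differences of −0.67 and −0.90. The nuclear pore genes Nup188, Nup154 and Nup160 had differences of −0.84, −0.76 and −0.70. Of genes that modify RNA, Elp2 and Elp3 of the Elongator complex had differences of −1.0 and −1.02, the RNA methyltransferase Nsun2 one of −1.0 and the pseudouridine synthase Pus1 one of −0.72. In Elp2 the glia response was 0.83 and the neuron response −0.17, so that Attp_Glia, at 14.7, 15.3 and 11.9 CPM, was the low group. srl, the fly relative of the coactivator PGC-1, had 18.3, 26.0 and 15.7 CPM in PIGA KD_Neuron, against 37.5, 35.8 and 39.2 CPM in Attp_Neuron, and 47.2, 31.6 and 35.8 CPM in PIGA KD_Glia, against 16.4, 18.7 and 9.73 CPM in Attp_Glia (difference −2.26, SE 0.34, edgeR adjusted p = 0.00734).

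Secreted signals and lipid genes were also present among the 226 called genes of no list. All genes named from here on were likewise picked after their values were seen. daw, an activin-like ligand, had a difference of −1.75 (edgeR adjusted p = 0.0194), while dpp, the fly BMP ligand, had one of 0.69 (edgeR adjusted p = 0.037). The peptide genes Capa and Trissin had differences of −1.29 and −0.89. Ork1, a potassium leak channel, had 65.8, 68.7 and 49.0 CPM in PIGA KD_Neuron, against 74.9, 75.8 and 98.9 CPM in Attp_Neuron, and 89.5, 88.0 and 84.4 CPM in PIGA KD_Glia, against 32.2, 31.0 and 42.1 CPM in Attp_Glia (difference −1.76, SE 0.22, edgeR adjusted p = 0.00438). SamDC, of polyamine synthesis, had a glia response of 1.17 and a difference of −1.01. Of lipid genes Agpat4, Hmgs and Seipin had differences of −0.97, −0.92 and −0.80, and LPCAT and Dgkepsilon of 0.70 and 0.69. Agpat4 had responses of the same sign, 0.60 under the neuron driver, which was not called, and 1.57 under the glia driver. Of the 309 called genes, 5 lower genes had no symbol in the names used here.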
